A study of Mus musculus with 14 samples.

Results

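A group of 9 plasma protein genes of the hepatocyte were followed through 14 RNA-seq libraries of mouse embryonic stem (ES) cells and their early endoderm derivatives: the fibrinogen chains Fga, Fgb and Fgg, the carrier proteins Alb, Afp and Ttr, and the clotting genes Proc, F10 and F2. They are 9 of the 24054 genes in each table. The genes were selected on their TPM (a transcript level scaled for gene length and library total) and on their expected counts across the 6 groups, so their levels and fold changes are given as a description, with no p-value. Which of them passed the threshold applied to all genes is given as a count beside the share of all genes, and nothing is read from it.

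Fibrinogen is secreted by hepatocytes as a hexamer in which the Aα, Bβ and γ chains, made from Fga, Fgb and Fgg, occur in equal number, and the chains are usually transcribed together. F10 and F2 encode the clotting zymogens factor X and prothrombin, and Proc encodes protein C, which once activated cuts clotting cofactors. Afp, Alb and Ttr are abundant products of fetal or adult liver, and Afp and Ttr are also made by the visceral endoderm, the extraembryonic layer around the early embryo. Foxa2 belongs to the forkhead factors that bind regulatory DNA of many liver genes.

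Control (con) cells carried Foxa2-Venus-KO/+, in which an H2B-Venus reporter replaces the Foxa2 coding sequence of one allele, and knockout (ko) cells carried Foxa2-Venus-KO on both alleles. The day 0 groups d0con (n = 2) and d0ko (n = 2) were ES cells on red-fluorescent feeder fibroblasts without LIF, sorted as Cherry-negative. The day 3 groups d3con (n = 3) and d3ko (n = 3) were differentiated on Wnt3a feeder cells with 12 ng/ml Activin A and sorted as Venus-positive, so that both genotypes were gated on activity of the Foxa2 locus. By the clone names on the deposited data, which the sample labels do not give, each genotype was represented by 2 clones, and replicates 1 and 3 of each day 3 group shared a clone. The d2-FVFn (n = 2) and d2-FVFp (n = 2) groups came from the ES cell line T119 (TetON-Foxa2-Venus), a Sox17-Cherry homozygous line with a lentiviral Foxa2-Venus transgene, kept in LIF and serum without feeders. These cells received 40 ng/ml doxycycline for 48 h and were sorted as Venus-negative or Venus-positive, so both groups had met the drug. All 14 libraries were bulk samples, in which fewer cells of a type and less RNA per cell cannot be told apart.

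Replicate 2 of each day 3 group stood apart. Dppa5a, a pluripotency gene, was at 1867 TPM in d3ko replicate 2 against 14200 and 15543 TPM in the others, and Cer1, an endoderm marker, at 56.4 TPM against 1.22 and 1.87 TPM. In d3con replicate 2 the pluripotency genes Pou5f1 and Nanog were at 319 and 246 TPM, against 59.7 to 63.5 TPM and 40.2 to 42.5 TPM in the others. Libraries held between 14142788 and 27278237 expected counts. Foxa2 was at 0.07 to 0.14 TPM at day 0, at 34.8 to 58.6 TPM in d3con and at 0.11 to 0.19 TPM in d3ko. In the doxycycline line it was at 2.01 and 2.99 TPM in d2-FVFn and at 160 and 169 TPM in d2-FVFp. Fibroblast markers (10 genes) summed to 13 to 16.1 TPM in d0con, 39.5 to 139 TPM in d0ko, 69.6 to 316 TPM in d3con, 146 to 376 TPM in d3ko and 4.91 to 7.71 TPM in the doxycycline libraries. Of these 10 genes, 6 rose from d0con to d3con and 3 from d0ko to d3ko, beside 20.6% and 11.6% of all genes tested. None was called between the day 3 genotypes, beside 4.75% of genes higher and 3.51% lower in d3ko. With doxycycline 1 of 4 tested (Col1a2) was lower in d2-FVFp, beside 1.47%. All 8 definitive endoderm markers reached 1 TPM in d3con and in d3ko, and summed to 1282 to 1758 TPM and to 264 to 545 TPM. Among 20 hepatocyte enzyme genes only 4 reached 1 TPM in any library, and Cyp3a11 had no count in any. Platelet gene Gp9 and globin gene Hbb-bs were also at 0 in all 14 libraries, and Pf4 stayed at or below 0.77 TPM.

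The fibrinogen genes lie within 42140 bases of chromosome 3 (GRCm38), in the order Fgg, Fga and Fgb, with gaps of 11097 and 8619 bases. Fgg (chr3:83007724-83015056) and Fga (chr3:83026153-83033627) are on the plus strand and Fgb (chr3:83042246-83049863) on the minus strand. Because the chains parted in these cells, the 250 bases before each RefSeq start site are shown 5′ to 3′ on the strand of the gene, at chr3:83007474-83007723 for Fgg, chr3:83025903-83026152 for Fga and chr3:83049864-83050113 for Fgb. Capitals mark matches on either strand to the forkhead words TGTTTAC and TATTTAC.
Fgg: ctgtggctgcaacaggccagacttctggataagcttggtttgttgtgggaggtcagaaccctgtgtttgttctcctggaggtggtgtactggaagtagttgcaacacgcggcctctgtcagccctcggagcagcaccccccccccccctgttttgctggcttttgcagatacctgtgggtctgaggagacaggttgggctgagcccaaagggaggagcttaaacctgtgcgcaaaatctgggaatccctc
Fga: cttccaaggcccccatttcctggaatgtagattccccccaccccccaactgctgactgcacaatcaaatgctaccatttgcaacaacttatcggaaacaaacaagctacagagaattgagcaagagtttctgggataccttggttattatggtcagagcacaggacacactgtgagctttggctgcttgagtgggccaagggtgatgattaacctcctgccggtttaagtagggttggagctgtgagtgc
Fgb: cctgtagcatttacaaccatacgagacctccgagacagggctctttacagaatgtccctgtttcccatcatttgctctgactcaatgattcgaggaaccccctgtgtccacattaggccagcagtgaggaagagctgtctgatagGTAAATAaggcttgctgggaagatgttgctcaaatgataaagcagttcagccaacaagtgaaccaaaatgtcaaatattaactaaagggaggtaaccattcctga
The Fgb window held TATTTAC, read on the opposite strand, between 105 and 99 bases before the start. Neither forkhead word was in the Fga or Fgg window, or in those of Alb, Afp, F2 and F10, and one or the other was in 5.76% of 32851 promoter windows of this length. Windows of 7 of the 9 genes were searched. Those of Ttr and Proc were not, so the presence of either word there was not tested. A match is a run of letters, not a measured site.

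Fgb had the highest level of any member, and it was high in Venus-positive doxycycline cells alone. It reached 97.2 TPM (1120 counts) and 208 TPM (2820 counts) in the d2-FVFp replicates, a mean of 153 ± 78.3 TPM (SD, n = 2). Both d2-FVFn libraries had 0 counts. Against a floor of 3 counts per library, or 0.205 TPM, the Fgb level was at least 744-fold higher in d2-FVFp. The other 10 libraries held 1 Fgb count in all, in d3con replicate 2, although Foxa2 reached 58.6 TPM in d3con. The d2-FVFp replicates were close in Foxa2 (169 and 160 TPM) but not in Fgb, with Fgb to Foxa2 ratios of 0.576 and 1.30.

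Fga and Fgg did not accompany Fgb. Fga had 1 count in all 14 libraries together, in d0ko replicate 2, and 0 counts in both d2-FVFp libraries. Its largest 3-count floor was 0.134 TPM. Fgg was at 1.43 and 1.52 TPM in d2-FVFp and at 1.55 and 0.77 TPM in d2-FVFn, and these groups overlapped, with a fitted log2 fold change of 0.32 (SE 0.53). Of the summed TPM of the fibrinogen genes, Fgb made up 98.5% and 99.3% in the d2-FVFp replicates, or 67.9 and 137 times the Fgg level.

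**Figure D1:**
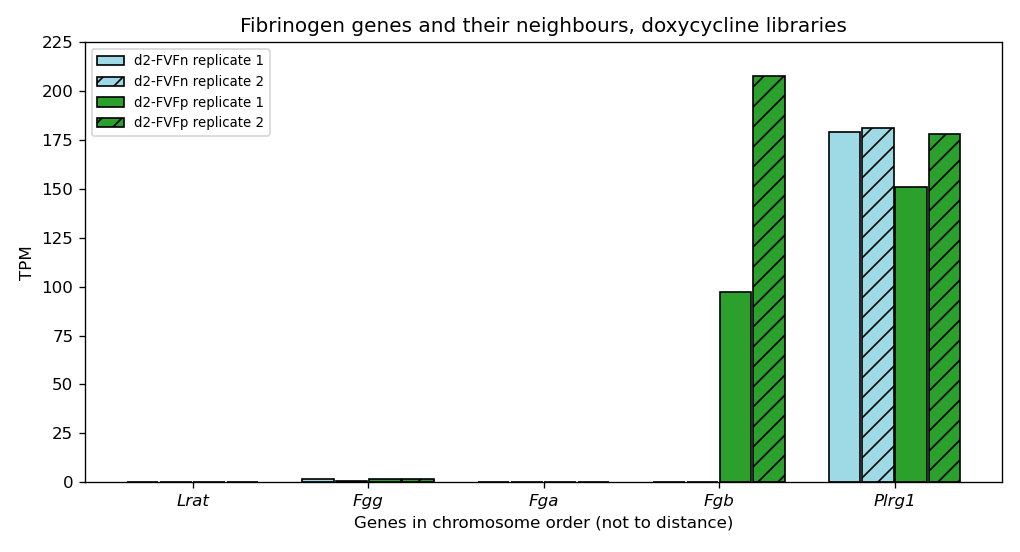
Bars give the TPM (linear axis from 0) of each fibrinogen gene and its nearest protein-coding neighbours in each of the 4 doxycycline libraries, in chromosome order and not to distance. Only the d2-FVFp bars of Fgb (97.2 and 208 TPM) rise within the locus, while Plrg1 stands between 151 and 181 TPM in all 4 libraries.

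The neighbours of the locus did not move with Fgb. Plrg1, which encodes a spliceosome component and starts 5675 bases beyond Fgb, was at 122 to 181 TPM across the 14 libraries. Its log2 fold change with doxycycline-driven Foxa2 was -0.18 (SE 0.13, edgeR adjusted p = 0.389). Lrat, 103750 bases on the other side, did not exceed 0.09 TPM in any library.

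Fgg was the one fibrinogen gene with counts in all 14 libraries, at 2 to 35 counts. Fgg was at 0.12 and 0.13 TPM in d0con (2 counts each, under the 3-count floors of 0.1745 and 0.1947 TPM). It was at 0.28 and 0.68 TPM in d0ko, 0.70, 0.91 and 1.08 TPM in d3con, and 1.18, 1.23 and 1.57 TPM in d3ko. The groups were ordered d0con, d0ko, d3con, d2-FVFn, d3ko and d2-FVFp by mean. The d2-FVFn range overlapped both of its neighbours, d3con and d3ko, and d2-FVFp lay within the d3ko range, while d0con, d0ko and d3con did not overlap. From d0con to d3con the fitted log2 fold change was 2.60 (SE 0.68), and from d0ko to d3ko it was 1.30 (SE 0.56). Between the genotypes at day 3 it was 0.56 (SE 0.48). The fibroblast markers given above were also higher at day 3 than in d0con and higher in d0ko than in d0con, and their part in the Fgg levels was not tested.

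The carrier proteins stayed at or near 0. Alb had no count in any library, against 3-count floors of 0.0992 to 0.199 TPM. Afp was at 0.65 and 0.50 TPM (10 and 9 counts) in d2-FVFp and had 1 count in d2-FVFn replicate 1, a count ratio of 22.9 with a 95% interval of 3.65 to 954 that covers counting error only. The other 11 libraries had no Afp count. Ttr was at 0.45 and 0.48 TPM (4 and 5 counts) in d2-FVFp and at 0 in d2-FVFn, at least 1.74-fold higher against the floor. At day 3 it had 2, 3 and 0 counts in d3con and 0, 0 and 3 counts in d3ko, and it had none at day 0. Afp and Ttr were thus detected in both Venus-positive doxycycline libraries at levels under 1 TPM. Ankrd17 and Afm, the genes on either side of the Alb and Afp pair, were at 14.6 to 20.6 TPM and at up to 0.91 TPM, and the Afm values in d2-FVFp (0.74 and 0.91 TPM) were above all others.

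**Figure D2:**
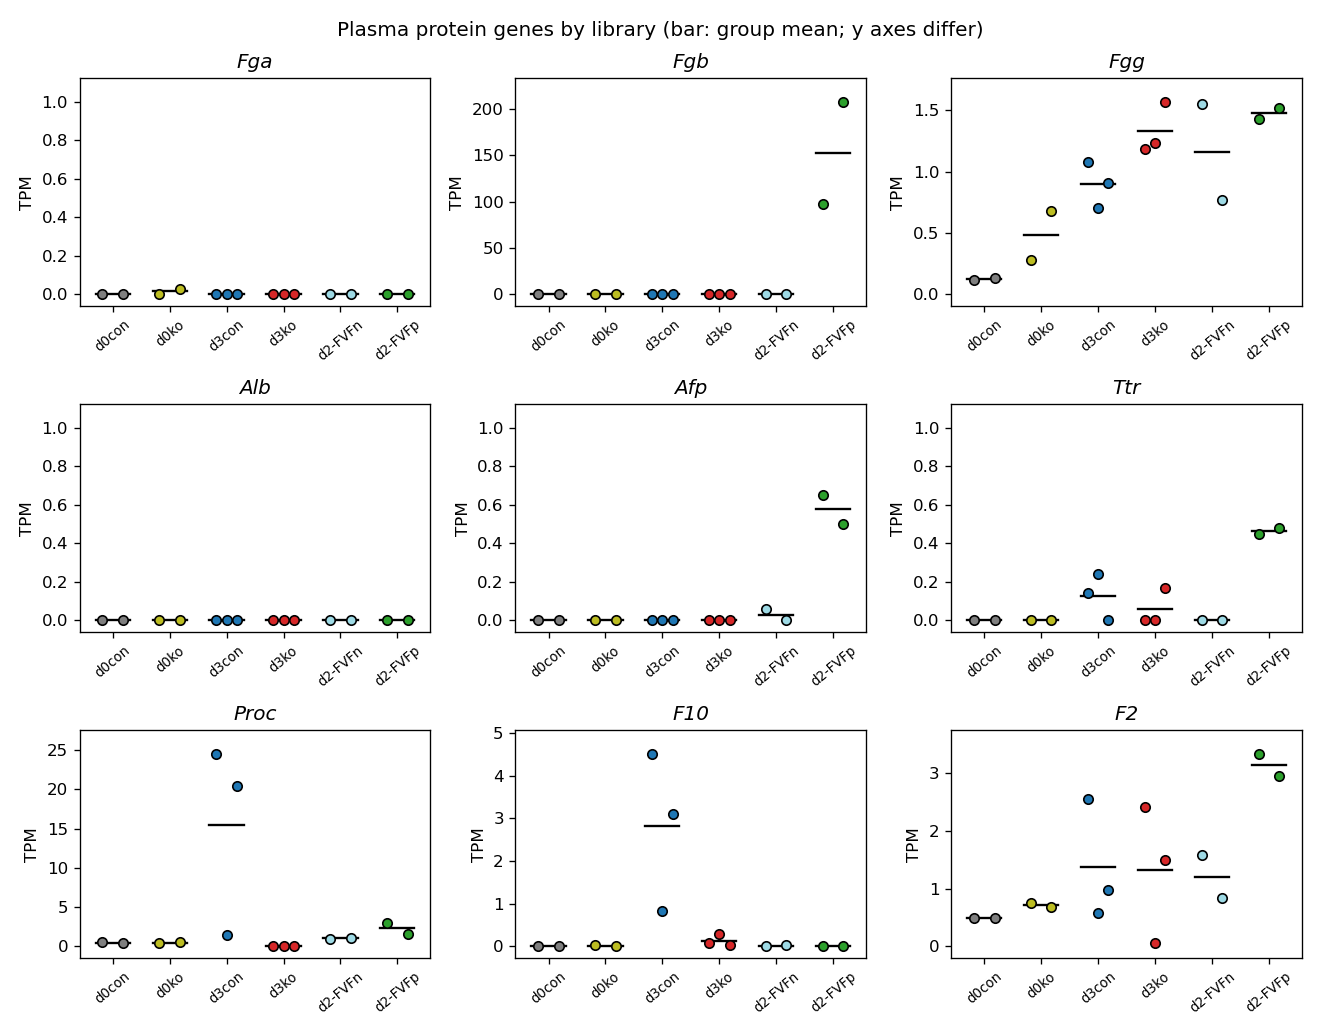
Each panel plots the TPM of a gene (linear axes that differ between panels) for every library of the 6 groups, with a bar at the group mean. Fgb is high in d2-FVFp alone, Proc and F10 are highest in d3con, Afp and Ttr are highest in d2-FVFp at under 1 TPM, and Alb is at 0 throughout.

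Proc and F10 had another pattern, with their highest values in differentiated control cells. Proc was at 24.6, 1.47 and 20.5 TPM (447, 24 and 396 counts) in d3con, a mean of 15.5 ± 12.3 TPM (SD, n = 3). It was at 0.51 and 0.38 TPM in d0con and at 0.41 and 0.56 TPM in d0ko. In d3ko it had 0, 0 and 1 count, below every other library. Proc was at 0.98 and 1.05 TPM in d2-FVFn and at 2.96 and 1.63 TPM in d2-FVFp. By mean, d3con was followed by d2-FVFp, d2-FVFn, d0ko, d0con and d3ko. The d3con and d2-FVFp ranges overlapped, as did those of d0ko and d0con, and the other neighbours in this order did not overlap.

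The fitted Proc log2 fold change from d0con to d3con was 4.92 (SE 1.14). The d3con to d3ko ratio of summed Proc counts, scaled to library totals, was 832, with a counting interval of 149 to 32895. Between d0ko and d3ko the counts fell by a ratio of 25.4 (interval 4.06 to 1052). The fitted log2 fold change was -4.40 (SE 1.54), and -5.29 in an alternative fit with replicate number as a block, which called Proc lower. The fitted log2 fold change with doxycycline-driven Foxa2 was 1.11 (SE 0.50). Iws1 and Map3k2, the genes on either side of Proc, did not differ past the threshold between d3ko and d3con, with log2 fold changes of 0.08 (SE 0.12, edgeR adjusted p = 0.709) and 0.02 (SE 0.24, edgeR adjusted p = 0.974). Map3k2 rose from day 0 to day 3 in both genotypes, by 1.26 on the log2 scale in con (SE 0.28, edgeR adjusted p = 0.00528) and by 1.33 in ko (SE 0.28, edgeR adjusted p = 0.00892).

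F10 was at 4.52, 0.84 and 3.11 TPM (134, 22 and 97 counts) in d3con, a mean of 2.82 ± 1.86 TPM (SD, n = 3). It had 0 counts in both d0con libraries, so the level was at least 26.4-fold higher in d3con, and it had 1 and 0 counts in d0ko. In d3ko it was at 0.09, 0.29 and 0.03 TPM, all below the lowest d3con value, and the fitted log2 fold change between the genotypes was -4.46 (SE 0.98). The doxycycline libraries held 1 F10 count in all, in d2-FVFn replicate 2. F7 and Proz, the clotting factor genes that flank F10 on chromosome 8 (chr8:13037308-13056676) at 1499 and 3908 bases, were at up to 0.13 and 0.29 TPM in any library. The F10 values of d3con thus had no counterpart in its clotting-factor neighbours.

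F2 was low and did not separate the day 3 genotypes. It was at 2.55, 0.58 and 0.97 TPM in d3con and at 2.41, 0.05 and 1.5 TPM in d3ko, with a fitted log2 fold change of -0.08 (SE 0.94). It was at 0.49 TPM in both d0con libraries and at 0.75 and 0.68 TPM in d0ko. In the doxycycline line F2 was at 1.59 and 0.83 TPM in d2-FVFn and at 3.34 and 2.95 TPM in d2-FVFp, the highest values of the series, with a log2 fold change of 1.34 (SE 0.45). F2 (chr2:91612397-91636457) overlaps Ckap5, a microtubule regulator at 51.2 to 136 TPM, over 8283 bases. The library kit does not keep strand, so reads from that stretch cannot be told apart.

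A gene was called in a comparison when its edgeR adjusted p was under 0.05 and its log2 fold change exceeded 1 in size, and genes with a CPM (counts scaled to the library total) of at least 1 in 2 libraries were tested. Among the 10 libraries of day 0 and day 3, 4 of the 9 members passed this filter (F10, F2, Fgg and Proc), and among the 4 doxycycline libraries 4 did (F2, Fgb, Fgg and Proc). From d0con to d3con, 3 of the 9 (F10, Fgg and Proc) were called higher, beside 20.6% of the 13899 genes tested. From d0ko to d3ko none was called (Proc was, lower, in the fit with the replicate block), beside 11.6% of genes higher and 5.72% lower. Between d3ko and d3con, 2 (F10 and Proc) were called lower, beside 3.51% of genes lower and 4.75% higher. With doxycycline-driven Foxa2, 1 (Fgb) was called higher, beside 6.96% of 12943 genes, and 1.47% of genes were lower. No member was called between d0ko and d0con or in the interaction of genotype and day, beside 0% of genes by edgeR in each. At an unadjusted p under 0.05, edgeR passed 195 genes in the first and 1840 in the second, and DESeq2 called 1 and 565. Since these contrasts chose the members, nothing is read from the counts of members.

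By the clone names, replicate 2 of d3con was the only library of its clone in that group. It was low in Proc and F10, the members that were highest in d3con. Its Proc level was 6.53% of the mean of replicates 1 and 3 and its F10 level 22.0%, against 70.4% for Fgg. In F2, which did not separate the day 3 genotypes, this library was at 33.0% (0.58 TPM against 2.55 and 0.97 TPM). Its Foxa2 level was 61.6% of that mean. The factors Foxa3 and Hnf4a, which act on liver genes, were at 15.4% and 17.1%, and Spink3, a protease inhibitor of visceral endoderm and gut, at 7.39%. The F10 call between d3ko and d3con was lost when either d3con replicate 1 (log2 fold change -3.89) or replicate 3 (-4.44), or either d3ko replicate 1 (-4.30) or replicate 3 (-3.90), was left out. The Proc call was lost when replicates 1 and 3, which share a clone name, were summed (-8.98), and so was the F10 call (-4.00). Replicate 1 of both day 3 groups had longer reads by its effective gene lengths (75 against 50 bases), and without both of these libraries the log2 fold changes were -8.37 for Proc and -3.72 for F10, and neither was called. Without replicate 2 of both day 3 groups they were -9.40 for Proc and -6.12 for F10, and both were called.

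**Figure D3:**
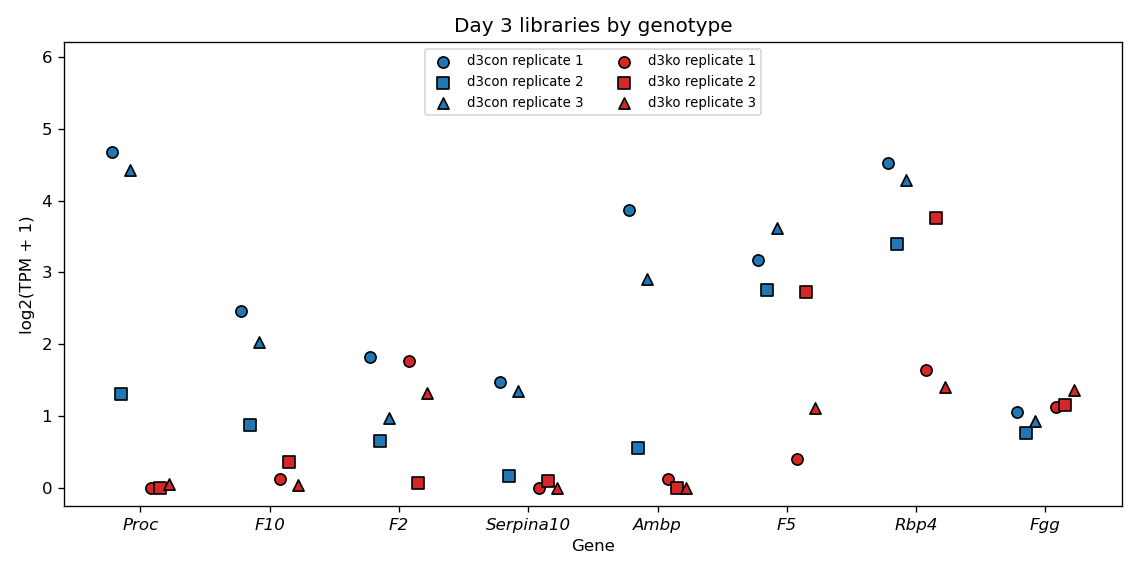
Points give log2(TPM + 1) of 8 plasma protein genes in the 6 day 3 libraries, with colour for genotype and shape for replicate number. Proc, F10, Serpina10 and Ambp are higher in each d3con library than in each d3ko library and lowest among d3con libraries in replicate 2, whereas d3ko replicate 2 lies within the d3con range for Rbp4 (12.5 TPM) and just below it for F5 (5.64 against 5.78 TPM).

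The wider clotting system was followed through fixed gene lists. Of 25 coagulation genes, 12 were tested at day 0 and day 3. From d0con to d3con, 2 rose and 1 fell, beside 20.6% and 14.6% of all genes tested. The median log2 fold change was 0.19 beside 0.07 over all genes. F5, the cofactor of factor Xa, rose from 0.15 and 0.00 TPM to 7.99, 5.78 and 11.3 TPM (log2 fold change 6.52, SE 1.43, edgeR adjusted p = 0.00506). Serpina10, the protein Z-dependent inhibitor of factor X, rose from 0 counts in both d0con libraries to 1.77, 0.12 and 1.55 TPM, at least 6.41-fold (edgeR adjusted p = 0.0245). Procr, the receptor of protein C, fell from 6.42 and 2.83 TPM to 1.04, 0.32 and 0.49 TPM (-3.08, SE 0.68, edgeR adjusted p = 0.00523), while its ligand's gene Proc was at its highest. From d0ko to d3ko, F5 alone rose (3.80, SE 1.23, edgeR adjusted p = 0.0441), to 0.32, 5.64 and 1.17 TPM, beside 11.6% of all genes. None of the 12 genes was called between d3ko and d3con (median -0.15 beside 0.02), beside 4.75% of all genes higher and 3.51% lower.

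With doxycycline-driven Foxa2, 3 of 11 coagulation genes tested rose and none fell, beside 6.96% and 1.47% of all genes tested. The median log2 fold change was 0.82 beside 0.01 over all genes. Kng1, which encodes kininogen of the contact pathway, rose from 0.42 and 0.41 TPM to 43.0 and 92.5 TPM (7.15, SE 0.50, edgeR adjusted p = 0.000831). Whether Kng1 passed the filter through d2-FVFp alone was not worked out. Its near-identical copy Kng2 went from 0.19 and 0.29 TPM to 11.9 and 19.3 TPM, and reads may be split between the copies. F3, the tissue factor that starts clotting, rose from 7.99 and 6.30 TPM to 19.3 and 35.8 TPM (1.91, SE 0.32, edgeR adjusted p = 0.0111). F5 rose from 0.29 and 0.35 TPM to 1.08 and 1.88 TPM (2.15, SE 0.41, edgeR adjusted p = 0.0161). The vitamin K enzyme genes Ggcx and Vkorc1, needed to finish factor X, prothrombin and protein C, were at 6.95 to 15.6 TPM and 46.7 to 100.1 TPM across the 14 libraries and were called in none of these comparisons.

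Of 11 fibrinolysis genes, 5 were tested in each fit. Between d0con and d3con 3 rose (Plat, S100a10 and Anxa2) and Plaur fell, beside 20.6% and 14.6% of all genes (median 1.09 beside 0.07). S100a10 and Anxa2, partners that hold plasminogen at the cell surface, reached 1111 to 1549 TPM and 333 to 477 TPM in d3con (edgeR adjusted p = 0.0419 and 0.0163). Plaur, the urokinase receptor, went from 108 and 73.4 TPM to 16.7, 14.5 and 9.63 TPM (-2.94, SE 0.39, edgeR adjusted p = 0.00057). With doxycycline-driven Foxa2 3 rose and none fell, beside 6.96% and 1.47% of all genes (median 1.83 beside 0.01). Plat, the tissue plasminogen activator, rose from 1.47 and 2.81 TPM to 51.2 and 43.6 TPM (4.40, SE 0.29, edgeR adjusted p = 0.00082), and Plaur rose from 34.6 and 33.9 TPM to 101 and 222 TPM (2.19, SE 0.34, edgeR adjusted p = 0.00834). From d0ko to d3ko Plaur fell (-1.75, SE 0.38, edgeR adjusted p = 0.0106), beside 5.72% of all genes. No gene of this list was called between the day 3 genotypes, beside 4.75% of all genes higher and 3.51% lower.

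Of 32 other liver plasma protein genes, only 11 reached 1 TPM in any library and 5 had no count in any. In d3con 2 of 7 tested were higher than in d0con and 2 lower, beside 20.6% and 14.6% of all genes (median 0.58 beside 0.07). Rbp4, the retinol carrier, rose from 0.49 and 0.12 TPM to 22.0, 9.52 and 18.5 TPM (5.56, SE 1.17, edgeR adjusted p = 0.00414). Ambp, the precursor of alpha-1-microglobulin and bikunin, rose from 0 counts to 13.5, 0.47 and 6.51 TPM, at least 29.8-fold (edgeR adjusted p = 0.0129). Ambp and Serpina10 passed the filter through d3con alone, so they could only be called with d3con higher. The carriers of vitamin D and iron fell: Gc went from 3.50 and 3.31 TPM to 0.10, 0.00 and 0.00 TPM (edgeR adjusted p = 0.000982) and Trf from 7.47 and 6.29 TPM to 0.18, 0.61 and 0.21 TPM (-4.58, SE 0.80, edgeR adjusted p = 0.00176).

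Between d3ko and d3con, 2 of the 7 were higher and 1 was lower, beside 4.75% and 3.51% of all genes (median 0.43 beside 0.02). Ambp had 1 count in d3ko, a d3con to d3ko count ratio of 282 with an interval of 50.2 to 11180 (edgeR adjusted p = 0.0291). Trf was at 5.03, 1.68 and 12.6 TPM in d3ko (4.29, SE 0.76, edgeR adjusted p = 0.0137), and the other gene called higher was Gc. From d0ko to d3ko Rbp4 rose (3.17, SE 1.02, edgeR adjusted p = 0.0436) and Gc fell (-2.71, SE 0.76, edgeR adjusted p = 0.0263), beside 11.6% and 5.72% of all genes. With doxycycline-driven Foxa2, 5 of 9 tested rose and none fell, beside 6.96% and 1.47% of all genes (median 1.41 beside 0.01). Rbp4 rose from 1.29 and 1.61 TPM to 10.5 and 12.6 TPM (2.95, SE 0.39, edgeR adjusted p = 0.00501). Vtn, the adhesive protein vitronectin, rose from 0.00 and 0.11 TPM to 1.79 and 2.72 TPM (edgeR adjusted p = 0.0106). Itih2 rose from 0 counts to 0.65 and 1.5 TPM, at least 10.6-fold (edgeR adjusted p = 0.0129). Vtn and Itih2 passed the filter through d2-FVFp alone, so they could only be called higher. C3 of the complement system rose from 0.09 and 0.32 TPM to 1.27 and 0.99 TPM (2.38, SE 0.58, edgeR adjusted p = 0.0336), and the fifth gene was Trf. Whether C3 passed the filter through d2-FVFp alone was not worked out.

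Over the 68 genes of these lists, 7 of 24 tested rose from d0con to d3con, beside 20.6% of all genes tested, and 2 of 24 rose from d0ko to d3ko, beside 11.6%. With doxycycline-driven Foxa2 11 of 25 rose, beside 6.96%. The 11 include Itih2 and Vtn, which passed the filter through d2-FVFp alone. The 7 include Ambp and Serpina10, which passed it through d3con alone. Such genes could only be called higher. Which of the other genes counted passed in this way was not worked out. Kng1 (0.42 and 0.41 TPM) and C3 (0.09 and 0.32 TPM) were also low in d2-FVFn. The counts are therefore not an even comparison with the shares of all genes. Between d3ko and d3con 1 of 24 was lower, beside 3.51%, and none was called lower between d0ko and d0con or in the interaction, where edgeR called no gene at all. In the fit with the replicate block, 0 rose from d0ko to d3ko. The genes that rose both in d3con and with doxycycline were Anxa2, F5, Plat and Rbp4, 57.1% of the 7 and 36.4% of the 11, from fits that share no library.

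**Figure D4:**
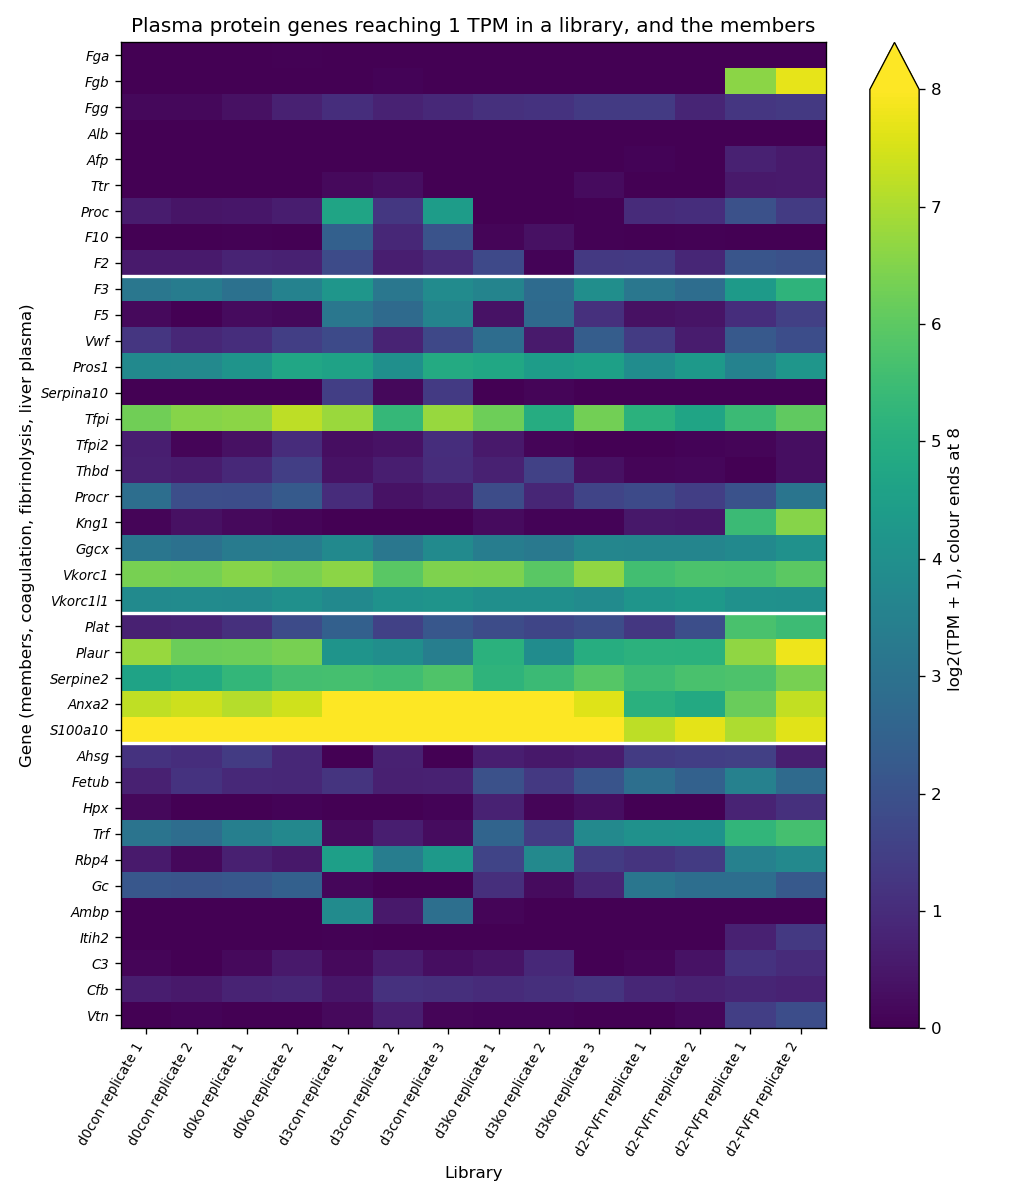
Colour gives log2(TPM + 1) of the 9 members and of the coagulation, fibrinolysis and liver plasma protein genes that reached 1 TPM in a library (rows, parted by white lines) in the 14 libraries (columns). Fgb and Kng1 are bright in d2-FVFp columns alone. Proc, F10, Serpina10 and Ambp are highest in d3con replicates 1 and 3, with F10 and Serpina10 at no more than 4.52 and 1.77 TPM.

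The genes whose log2(TPM + 1) was most like the mean of Fga, Fgb and Fgg across the 14 libraries, among 11131 genes with 5 TPM in 2 libraries, were Kng1 (Pearson r 0.987), the uroplakin gene Upk1b (0.985), Bhmt (0.984), the chemokine gene Cxcl10 (0.983) and Cdx2 (0.983). The points of this likeness share the 2 d2-FVFp libraries, where each of these genes was highest, and Fgb carries the mean. Bhmt, a liver enzyme of methionine synthesis, was at 7.78 and 6.61 TPM in d2-FVFp and at up to 0.09 TPM elsewhere. Cdx2, a factor of trophectoderm and gut, was at 7.44 and 7.29 TPM there and at up to 0.44 TPM elsewhere.

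The transcription factors that act on hepatocyte genes in liver differed between the settings in which Fgb and Proc were high. Of 13, 11 were tested at day 0 and day 3. From d0con to d3con 8 rose and 1 fell, beside 20.6% and 14.6% of all genes (median 4.63 beside 0.07). Foxa3 reached 64.4, 10.1 and 66.6 TPM in d3con and 3.33, 1.27 and 4.47 TPM in d3ko (-3.95, SE 0.71, edgeR adjusted p = 0.0141). Foxa1 was lower likewise (-7.52, SE 0.72, edgeR adjusted p = 0.00349). Foxa1 passed the filter through d3con alone, so it could only be called with d3con higher. In all, 4 were lower and 2 higher in d3ko than in d3con (median -1.54), beside 3.51% and 4.75% of all genes. From d0ko to d3ko 4 rose, beside 11.6%. With doxycycline-driven Foxa2, 3 of 9 rose and 1 fell, beside 6.96% and 1.47% of all genes (median 0.81 beside 0.01). Gata6 rose to 6.73 and 4.71 TPM (5.19, SE 0.44, edgeR adjusted p = 0.00148) and Gata4 to 6.21 and 5.0 TPM (2.59, SE 0.30, edgeR adjusted p = 0.00338). Hnf4a did not exceed 0.11 TPM in the doxycycline libraries, so the high Fgb levels there stood beside Hnf4a transcripts under 1 TPM.

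Few genes of the hepatocyte enzyme list could be tested, and Bhmt, the liver enzyme given above, is not in this list. Of 4 tested, 1 rose (Arg1) and 2 fell (Hal and Ass1) in d3con, beside 20.6% and 14.6% of all genes tested. From d0ko to d3ko Arg1 rose, Ass1 was higher in d3ko than in d3con (2.69, SE 0.56, edgeR adjusted p = 0.0212), and neither of the 2 tested was called with doxycycline. The urea cycle gene Cps1 stayed at or below 0.43 TPM in every library. Tat, of tyrosine breakdown, was at 0.62 and 0.34 TPM in d2-FVFp and at or below 0.04 TPM in every other library.

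Visceral endoderm is another source of plasma proteins. Of 9 of its markers tested, 5 rose and 1 fell from d0con to d3con, beside 20.6% and 14.6% of all genes (median 3.21 beside 0.07). From d0ko to d3ko 1 rose and 2 fell, beside 11.6% and 5.72% (median 0.15 beside 0.07). Between d3ko and d3con 3 were lower, beside 3.51%, and 6 were not called, with a median of -0.11 beside 0.02. With doxycycline 4 of 10 rose, beside 6.96% (median 0.84 beside 0.01). Spink3 was lower in d3ko (-9.18, SE 1.24, edgeR adjusted p = 0.00922) and Cited1 was higher in d2-FVFp (4.11, SE 0.34, edgeR adjusted p = 0.00128). The 14 markers summed to 141 to 1507 TPM in d3con, 46.5 to 69.7 TPM in d3ko, 96.5 to 129 TPM in d2-FVFn and 162 to 273 TPM in d2-FVFp. Spink3 and Cited1 made up most of the d3con sums, at 1289, 70.9 and 631 TPM and at 182, 41.7 and 142 TPM, while Dab2 was at 8.75, 5.54 and 3.43 TPM in d3con and at 7.35, 3.60 and 7.23 TPM in d3ko. Afp and Ttr, which visceral endoderm makes in the embryo, were at the counts given above. Definitive endoderm markers rose in 7 of 8 from d0con to d3con and in 7 of 8 from d0ko to d3ko, beside 20.6% and 11.6% of all genes. They were lower in 3 in d3ko than in d3con, beside 3.51%. With doxycycline only 4 of the 8 were tested, and 3 rose, beside 6.96%. Of these, Cer1 (3 counts in d2-FVFn) and Lhx1 (0.08 and 0.28 TPM there) passed the filter through d2-FVFp alone. They could only be called higher. Pluripotency genes fell in 5 of 6 from d0con to d3con and in none from d0ko to d3ko, and were higher in 4 of 6 in d3ko than in d3con (medians -3.94, -0.53 and 3.85 beside 0.07, 0.07 and 0.02), with the low values of d3ko replicate 2 given above. The shares of all genes were 14.6% and 5.72% lower in these day comparisons and 4.75% higher in d3ko than in d3con. With doxycycline 1 of 6 rose, beside 6.96%. Among blood and platelet markers Gata1 alone was called, higher in d3con than in d0con and lower in d3ko than in d3con (-4.25, SE 0.65, edgeR adjusted p = 0.0107). The part of these cell states in the levels of Proc, F10 and Fgb was not tested.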

How the data were processed

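Bulk RNA-seq was read from 14 libraries (SMART-Seq v4 cDNA, unstranded, single-end). The authors aligned reads to mm10 (GRCm38) with STAR and deposited, for each library, the RSEM expected count, the TPM and the effective length of every gene. Versions are not given in the sources used here. Levels are the deposited TPM. Expected counts were rounded and fitted with edgeR 4.0.16 (R 4.3.3; TMM scaling, quasi-likelihood F test, Benjamini-Hochberg over all genes tested), once for the 10 day 0 and day 3 libraries and once for the 4 doxycycline libraries, and DESeq2 1.42.0 was an alternative to edgeR. The study's methods used DESeq2. The standard error is the log2 fold change divided by the root of F. On simulated counts the d3ko against d3con fit recovered 64.5% of 200 genes changed 4-fold.

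The labels do not say that replicates were separate cultures, so p-values measure only the spread between these samples. By the clone names on the deposited data, not given in the labels, same-numbered libraries of a genotype share a clone (correlations of deviations -0.03 to 0.06 in the day comparisons). The main fits used group means and were not paired. An alternative fit added the replicate number as a block. Its levels were shared by both genotypes, and number 3, of the same clone as number 1, had a level of its own. The members and gene lists were chosen with earlier results of these data known. Named genes were the members, up to 4 called genes per list and comparison with the largest change and a mean of at least 1 TPM in the higher group, list-defining markers, neighbours and the 5 most alike genes. Genes named outside this rule (Trf with doxycycline, Gc in d3ko, Col1a2, Kng2, Dppa5a, Cer1, Pou5f1, Nanog, Dab2, Ckap5, and values of Hnf4a, Ggcx, Vkorc1, Cps1, Tat, Cyp3a11, Gp9, Hbb-bs and Pf4) were chosen after their values were seen. Intervals (95%, exact binomial) and floors of 3 counts cover counting error only. Some items are not reported here. The lists were coagulation, fibrinolysis, liver plasma proteins, hepatic transcription factors, hepatocyte enzymes, visceral endoderm, definitive endoderm, pluripotency, fibroblast feeder, and blood and platelet.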

Additional observations from a re-analysis of the deposited data

Results flagged for a closer look

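The members and the list genes with a mean of at least 1 TPM in some group were searched for opposite movement between genotypes. The share of all genes with such movement was not counted. In 4 of the genes searched, all d3con values exceeded all d0con values, and all d3ko values lay below all d0ko values. Since they were picked for this opposite movement, and Proc was also selected on these levels, no test of the difference is given, and it was not tested on other libraries. As values, the fitted log2 interaction of genotype and day was -9.33 for Proc, -7.30 for Apob, -3.71 for Foxa3 and -10.19 for Spink3. No group held 4 or more libraries, so single libraries were not tested against their group.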

How the results depend on the processing

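Of 291 values of members under alternatives, 257 kept their direction and their side of the threshold, 15 lost a call, 10 gained one and 9 changed sign. The changes of sign were in values that were not called. They were F2 from d0ko to d3ko (-0.0103 without d3ko replicate 1, to 1.28 with another library left out), F2 between d3ko and d3con (-0.81 to 0.79 with one library left out, 0.48 without d3ko replicate 2, 0.0539 and 0.11 without both libraries of number 1 or of number 2), F2 in the interaction (-1.32 to 0.29 with one library left out), Proc between d0ko and d0con (-0.13 to 0.31 with one left out, and -0.11 without d0con replicate 2), and Fgg with doxycycline (-0.0943 to 0.92 with one left out). The Proc interaction was called by DESeq2 (-9.62) and without both number 2 libraries (-9.48), d3con replicate 2 (-9.87) or d3ko replicate 2 (-8.95). Proc and Fgg from d0con to d3con were not called without either d0con replicate (4.74 to 5.15 and 2.52 to 2.68). Proc from d0ko to d3ko was called lower by DESeq2 (-4.70), without both number 2 libraries (-4.01) and in the fit with the replicate block (-5.29). F2 was called higher from d0con to d3con without both number 2 libraries (1.68), and with doxycycline with no filter (1.33). With only the d3 groups in the fit, Proc (-9.27) and F10 (-4.45) were not called lower in d3ko. Fgb with doxycycline ranged from 13.52 to 14.05 and was always called, but could not be tested with a d2-FVFp library left out, when it was above the filter in a single library. The cause of these changes was not tested.

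Counts over the 68 plasma protein genes moved as follows. From d0con to d3con the 7 became 2 at an adjusted p under 0.01, 4 without both number 1 libraries, and 2 to 6 with one library left out (2 without either d0con replicate, 4 without d3con replicate 1 or 3). From d0ko to d3ko the 2 became 0 in the fit with the replicate block, 0 with only the groups compared and 0 at an adjusted p under 0.01. The 2 became 1 without both number 1 libraries. With 1 d3ko library left out they became 0 to 4 (0 without replicate 2, 4 without replicate 3). Between d3ko and d3con the 1 became 2 with no filter, 0 at a mean count of at least 50, 0 with only the groups compared, 0 at an adjusted p under 0.01, 0 with replicates 1 and 3 summed, 0 without both number 1 libraries, 4 without both number 2 libraries, and 0 to 3 with one library left out. In the interaction the 0 became 2 without both number 2 libraries and 0 to 1 with one library left out. With doxycycline the 11 became 7 at a mean count of at least 50, 5 at an adjusted p under 0.01, and 7 to 11 with one library left out (7 without d2-FVFp replicate 2).

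Numbers shared between d3ko and d3con do not mark a shared clone, and within the doxycycline line no source used here says that they mark a shared culture. Deviations correlated at 0.53, 0.29 and -0.01 between the day 3 genotypes and at 0.24 with doxycycline. Under the replicate block F10 between d3ko and d3con was not called (-4.29) and F2 with doxycycline was (1.38). The block changed no other member's call beside Proc from d0ko to d3ko. Depth limits Fga, Alb, Afp and Ttr, whose counts lie near the floor, and Fgg in d0con, where its counts lie under it.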
